A study of Mus musculus with 8 samples.

Results

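The genes described here are 33 immediate early genes, which cells switch on within a short time of a stimulus and which the enzymatic freeing of cells from tissue is known to induce. They were chosen by name. For each, the brightest probe set that the platform annotation assigns to that symbol alone was taken, out of 66 such probe sets for the 33 genes and 18194 genes named in this way on the array. The signals came from chondrocytes, the cells of growing cartilage, freed from rib cages of E18.5 embryos of FVB mice. Embryos of 4 litters were sorted by genotype, which gave in each litter 1 Hoxd4 transgenic pool and 1 wild-type pool, called transgenic-labelled and control-labelled below, and 1 array per pool. Cells of both groups were freed alike, for 1 h at 37 °C in 0.25% collagenase and 0.25% trypsin with EDTA and for 1 h more in fresh collagenase. No pool that skipped this digestion was measured, so levels before it are not known here. The labels used here give neither the promoter that drives the transgene, the number of embryos per pool nor their sex.

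Immediate early genes are transcribed from factors already present in the resting cell, such as serum response factor with its Ets partners and CREB, once kinase cascades phosphorylate them, so that no new protein has to be made first. Many of their products are transcription factors themselves, among them the Fos and Jun proteins that dimerise into AP-1. Others, such as the phosphatase Dusp1 and the mRNA-destabilising protein Zfp36, shut the response down again. In cartilage, AP-1 proteins and Egr1 are known to answer to mechanical load and growth factors.

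Cartilage genes were bright on every array: the lowest signal of any of 13 markers, Col2a1, Acan and Sox9 among them, was 3889. Each array was scaled by the authors to the same trimmed mean, and median signals lay between 100.5 and 115. The only probe sets for the overexpressed gene are shared with its neighbour Hoxd3. The brighter of them had signals of 94.1, 415, 172 and 13.0 in the transgenic-labelled pools of litters 1 to 4, against 27.3, 42.6, 4.10 and 256 in the control-labelled pools. It thus goes against the label in litter 4. Whether the transgene holds the sequence this probe set detects is not known here, and every direction given here rests on the labels. Levels of sex-linked genes also moved with the label. Eif2s3y lay between 813 and 1178 in transgenic-labelled pools and between 358 and 772 in control-labelled pools. It was higher in the transgenic-labelled pool in 4 of 4 litters, as were Uty and Kdm5d. Xist lay between 47.2 and 8209 against 5778 and 13760, and was lower in the transgenic-labelled pool in all litters but litter 4 (8209 against 8098). A difference by label and one by the sex of the embryos therefore cannot be told apart here.

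Promoter sequence was at hand for 27 of the 33 genes, from RefSeq on mouse build GRCm38.p6. Of these, 13 (48.1%) held TGACG, the core of the site that CREB binds, on either strand, as all motifs but TATAAA were searched, in the 250 bases before the annotated start, a match that 17.9% of all 27025 promoters have. The full palindrome TGACGTCA, which contains TGACG, stood in Dusp1 and Btg2 (7.41% of members, 1.62% of all promoters). The CArG box, the site of serum response factor, was found in Zfp36 alone (3.70% of members, 1.40% of all), TGANTCA, an AP-1 site, in none (6.87% of all). TATAAA on the sense strand, within 60 bases of the start, stood in Fos, Btg1 and Gadd45b (11.1% of members, 3.15% of all). A match describes letters in a window and is not evidence of binding. Sites farther upstream and members without promoter sequence were not searched, so the lack of a match does not show that a gene lacks the site. The 6 promoters below belong to the genes closest to Fos across pools or with the smallest p in the genotype comparison. They run 5′ to 3′ and end 1 base before the annotated start, with TGACG on either strand and TATAAA near the start in capitals.
Klf2, GRCm38.p6, chr8:72318812-72319061, plus strand: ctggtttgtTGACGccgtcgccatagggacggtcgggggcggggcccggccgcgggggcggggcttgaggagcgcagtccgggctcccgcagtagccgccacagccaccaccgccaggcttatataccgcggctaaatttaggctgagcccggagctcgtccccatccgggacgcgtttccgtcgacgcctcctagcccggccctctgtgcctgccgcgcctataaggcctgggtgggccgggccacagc
Klf4, GRCm38.p6, chr4:55532476-55532725, minus strand: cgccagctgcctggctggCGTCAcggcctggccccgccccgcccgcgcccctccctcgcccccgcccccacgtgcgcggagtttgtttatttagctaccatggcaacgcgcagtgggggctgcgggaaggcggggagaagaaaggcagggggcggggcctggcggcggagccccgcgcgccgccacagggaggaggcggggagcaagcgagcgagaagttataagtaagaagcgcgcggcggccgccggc
Nr4a2, GRCm38.p6, chr2:57124004-57124253, minus strand: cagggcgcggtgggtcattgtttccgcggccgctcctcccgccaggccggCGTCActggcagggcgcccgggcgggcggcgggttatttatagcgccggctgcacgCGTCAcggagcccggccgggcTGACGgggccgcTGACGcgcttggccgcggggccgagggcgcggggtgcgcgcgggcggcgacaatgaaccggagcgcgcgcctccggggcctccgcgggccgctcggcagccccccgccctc
Dusp1, GRCm38.p6, chr17:26508473-26508722, minus strand: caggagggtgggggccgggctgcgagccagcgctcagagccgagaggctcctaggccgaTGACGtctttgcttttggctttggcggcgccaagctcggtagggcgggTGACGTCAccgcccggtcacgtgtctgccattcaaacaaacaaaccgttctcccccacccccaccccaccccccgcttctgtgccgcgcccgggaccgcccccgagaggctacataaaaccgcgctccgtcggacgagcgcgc
Btg1, GRCm38.p6, chr10:96616751-96617000, plus strand: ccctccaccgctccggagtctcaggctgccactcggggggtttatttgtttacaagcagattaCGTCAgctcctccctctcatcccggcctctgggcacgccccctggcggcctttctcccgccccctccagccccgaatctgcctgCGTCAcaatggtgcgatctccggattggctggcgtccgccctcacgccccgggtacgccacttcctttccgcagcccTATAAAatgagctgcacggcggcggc
Rhob, GRCm38.p6, chr12:8500010-8500259, minus strand: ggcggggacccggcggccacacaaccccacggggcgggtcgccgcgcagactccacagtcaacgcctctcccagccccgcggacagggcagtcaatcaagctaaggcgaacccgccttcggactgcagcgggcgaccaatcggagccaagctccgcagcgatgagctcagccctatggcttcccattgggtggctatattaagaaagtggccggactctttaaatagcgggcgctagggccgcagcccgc
Nr4a2 holds TGACG most often among these 6, and Rhob holds none of the motifs searched.

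Of the 33 genes, 30 had a mean signal above the median of all probe sets and entered the tests. Fosl1, a Fos relative, Nr4a3, an orphan nuclear receptor, and Dusp2, a phosphatase of MAP kinases, were too dim. Signals of Fosl1 lay between 9.54 and 41.1 in transgenic-labelled and between 9.68 and 57.2 in control-labelled pools, those of Nr4a3 between 42.7 and 128 against 54.9 and 149, and those of Dusp2 between 63.4 and 127 against 33.9 and 93.7.

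Members had a larger median spread between pools than tested probe sets in general. The median SD of log2 signal over the 8 pools was 0.205 for the 30 members, against 0.174 for all 22518 tested probe sets and 0.127 for the 11259 whose mean signal was above the 75th percentile of the array. The largest spread belonged to Fosb, a Fos relative whose transcript is strongly inducible, to Socs3, an inhibitor of cytokine signalling, and to Zfp36. The smallest belonged to Fos, to Nfkbia, the inhibitor that holds NF-kappaB in the cytoplasm, and to Jun.

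Among the AP-1 subunits, Fosb had signals of 3317, 5500, 4613 and 2656 in the transgenic-labelled pools of litters 1 to 4, against 3042, 4098, 3271 and 3441 in the control-labelled pools. The highest and the lowest pool, 2.07-fold apart, both carried the transgenic label. Fos, the founding member, had signals of 28268, 30362, 30358 and 29420 in transgenic-labelled pools, against 28268, 28812, 29365 and 28026 in control-labelled pools. The pools of Fos lay within 1.08-fold of each other, and between 162 and 194 probe sets were brighter than Fos on each array, up to 55564. Whether its brightness limits the range that Fos can show was not tested. Jun, the usual partner of Fos, had 23925, 26237, 25940 and 22124 in transgenic-labelled pools, against 23671, 24652, 23742 and 24123 in control-labelled pools, a range of 1.19-fold. A dimmer probe set of Jun went with the brighter one across pools (r = 0.84, a description over 8 pools). Atf3, a stress-induced factor that pairs with Jun, had 3498, 3650, 3132 and 2540 in transgenic-labelled pools, against 3498, 3272, 2672 and 2966 in control-labelled pools. Junb, Jund, Maff and Fosl2, the remaining subunits, varied 1.58-, 1.49-, 1.72- and 1.65-fold.

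Among the zinc finger factors and nuclear receptors, Egr1, which is induced through serum response factor, had signals of 14052, 17605, 16087 and 10571 in transgenic-labelled pools, against 13511, 16512, 12063 and 12537 in control-labelled pools. Both pools of litter 2 were high, the transgenic-labelled pool of litter 3 was near them, and the transgenic-labelled pool of litter 4 was lowest. Klf4, a zinc finger factor also used to reprogram cells, had 4466, 5772, 6152 and 4388 in transgenic-labelled pools, against 3689, 4614, 4073 and 4469 in control-labelled pools. Nr4a2, an orphan nuclear receptor, had 839, 1246, 1134 and 1105 in transgenic-labelled pools, against 734, 965, 945 and 859 in control-labelled pools. Its transgenic-labelled pool was the higher in every litter, but the groups overlapped. The other tested genes of this role, Egr2, Egr3, Klf2, Klf6 and Nr4a1, spanned 1.49- to 1.70-fold between the lowest and the highest pool.

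Myc, a growth-promoting factor, ran another way than most: it had 2209, 2254, 1778 and 1897 in transgenic-labelled pools, against 2271, 1670, 1853 and 1685 in control-labelled pools, so that both pools of litter 1 and the transgenic-labelled pool of litter 2 were high. Cebpb and Cebpd, leucine zipper factors of the acute phase response, and the nuclear proteins Ier2 and Ier5 spanned 1.25- to 1.60-fold.

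Of the genes that restrain the response, Zfp36 had 5568, 8511, 6028 and 4495 in transgenic-labelled pools, against 5178, 7321, 4882 and 5369 in control-labelled pools. Socs3 ran much alike, with 5715, 7571, 7074 and 3973 in transgenic-labelled pools, against 5544, 7231, 5017 and 5435 in control-labelled pools. Both were high in the pools of litter 2 and lowest in the transgenic-labelled pool of litter 4. Dusp1, which inactivates MAP kinases, had 15788, 18546, 16174 and 15770 in transgenic-labelled pools, against 14996, 14667, 16219 and 13109 in control-labelled pools. Rhob, an inducible small GTPase, had 6310, 8652, 6543 and 7266 in transgenic-labelled pools, against 5643, 6375, 5796 and 6783 in control-labelled pools. For Dusp1 and Rhob the transgenic-labelled pool of litter 2 was the highest of the 8. Gadd45b, a stress sensor that activates p38 and JNK signalling, had 3364, 3477, 2843 and 3113 in transgenic-labelled pools, against 3741, 3238, 2740 and 2927 in control-labelled pools. Nfkbia had 6766, 6863, 7136 and 6723 in transgenic-labelled pools, against 6915, 7045, 6706 and 6403 in control-labelled pools, which is a range of 1.11-fold. This range is that of its brightest probe set, with which its other tested ones had r between -0.25 and 0.68. Btg1 and Btg2, inhibitors of proliferation, and Ier3, a survival factor, spanned 1.28- to 1.40-fold.

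**Figure D1:**
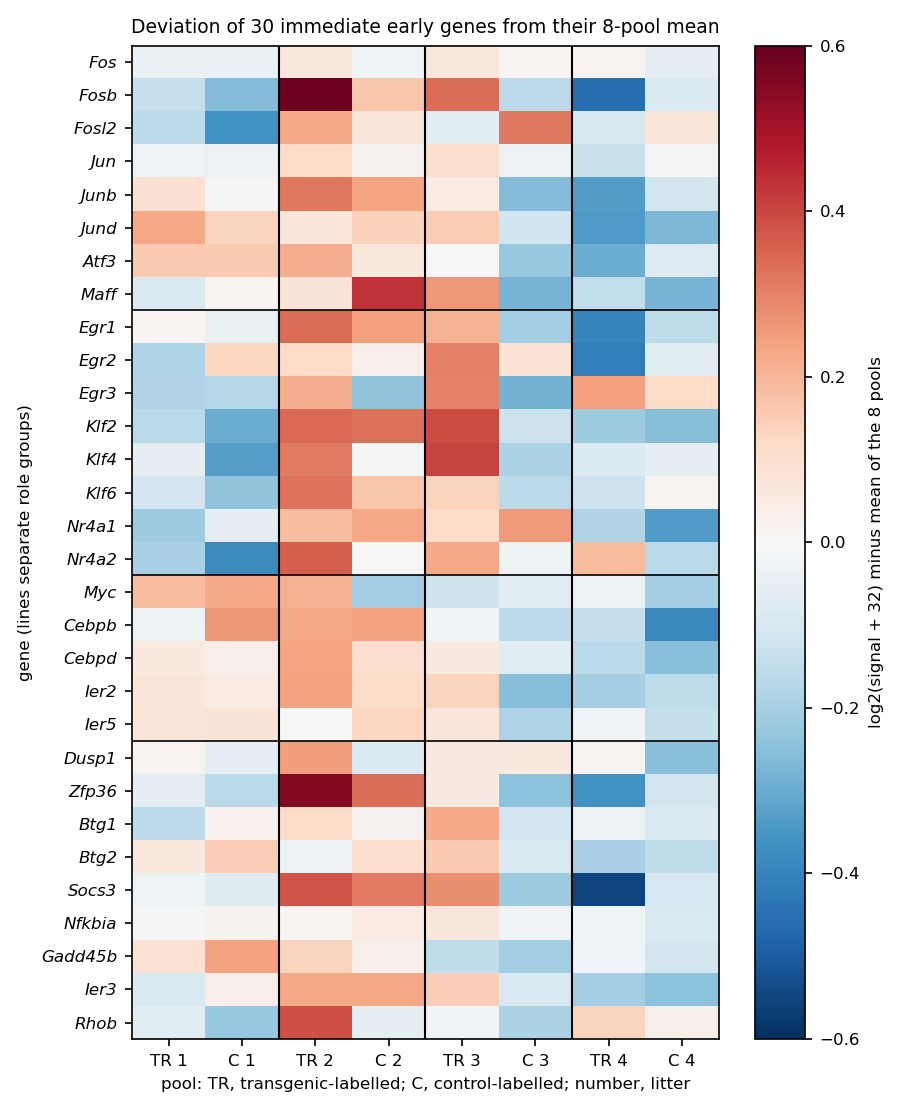
Heat map of the 30 tested genes (rows, grouped by role) in the 8 pools (columns, TR for transgenic-labelled and C for control-labelled, numbered by litter), with colour giving log2(signal + 32) minus the gene's mean over the 8 pools. Most rows are red in both pools of litter 2 and in the transgenic-labelled pool of litter 3, and blue in litter 4.

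Most members were high in litter 2 and low in litter 4. Averaged over the 30 genes, the log2 deviation from each gene's mean was 0.17 in litter 2 and fell to -0.14 in litter 4, with -0.04 in litter 1 and 0.01 in litter 3. Litter 2 had the highest litter mean for 21 genes and litter 4 the lowest for 21. Both pools of litter 2 lay above the gene's mean for 21 of 30 genes (70.0%), which holds for 30.1% of all tested probe sets. Both pools of litter 4 lay below it for 23 of 30 (76.7%), against 23.8% of all.

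An F test of the 4 litters in limma, with the genotype as a term and chosen after the values had been seen, gave an unadjusted p under 0.05 for 19 of the 30 genes (63.3%), where 14.6% of all tested probe sets and 20.2% of those above the 75th percentile of signal did. Of the 26 other tested probe sets of 16 of these genes, 12 did. After adjustment over all 22518 probe sets 109 (0.484%) passed at 0.05 and 0 of the 30 did. The nearest were Zfp36 (adjusted p = 0.056), the nuclear receptor Nr4a1 (0.061), the zinc finger factor Klf2 (0.071) and Jund (0.078), all from the same limma test. Zfp36 differed 1.61-fold between its highest and lowest litter mean, Fosb 1.57-fold, Socs3 1.57-fold and Egr1 1.48-fold. Without both pools of litter 2 the count fell to 10 of 30, against 12.7% of all probe sets, and without those of litter 1, 3 or 4 it was 16, 20 and 14, against 9.33%, 17.5% and 13.5% of all. Without litter 3, 6 genes passed the adjusted threshold, Jund, Egr1, Klf2, Nr4a1, Zfp36 and Socs3, as did 286 (1.27%) of all probe sets. The share of each gene's variation that lay between litters had a median of 64.1% for members, against 52.1% for all tested probe sets, and that between genotype labels a median of 5.53% against 6.65%. With 4 litters but only transgenic and control labels, the litter share is the larger even without any effect. Each share is therefore read beside that of all probe sets, not beside the other share.

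By role, the unadjusted count was 4 of 8 AP-1 subunits (Fosb, Junb, Jund and Atf3), 6 of 8 zinc finger factors and nuclear receptors (all but Egr2 and Egr3), 3 of 5 other regulators (Cebpb, Cebpd and Ier2) and 6 of 9 restraining genes (Zfp36, Btg2, Socs3, Gadd45b, Ier3 and Rhob). The labels give no batch of digestion or of scanning, so the litter and any such batch cannot be told apart. In pools of cells, fewer cells of a type and less RNA per cell cannot be told apart.

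Measures of RNA and of other cells are given beside this. The 18S ribosomal RNA control probe set was brightest in litter 4, with 439 in its transgenic-labelled and 368 in its control-labelled pool, against 243 to 307 elsewhere. The ratio of 3′ to 5′ signal of the Actb control probe sets, a common measure of RNA integrity, lay between 1.58 and 1.75 in transgenic-labelled pools and between 1.55 and 1.68 in control-labelled pools. Of 12 macrophage markers 7 were bright enough, and 3 of these, Csf1r, C1qb and Mrc1, had an unadjusted litter p under 0.05. Mrc1, a mannose receptor, passed the adjusted threshold (limma adjusted p = 0.0072), which no immediate early gene did. So did the erythroid genes Hbb-b2 and Alas2, a globin and an enzyme of haem synthesis (0.0025 and 0.0032). Of the 7 macrophage markers 4 had r above 0.5 with Egr1, up to 0.72 for C1qb, and of 3 erythroid genes all had a negative r. The macrophage markers' summed signal, over those 7, ranged from 1133 to 2436 in transgenic-labelled and from 1160 to 2734 in control-labelled pools. It was lowest in litter 1 and highest in the transgenic-labelled pool of litter 3 and the control-labelled pool of litter 2. The other macrophage markers were dim, down to 4.17 for the lowest signal, and none was at 0. The part of these in the litter differences of immediate early genes was not tested.

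**Figure D2:**
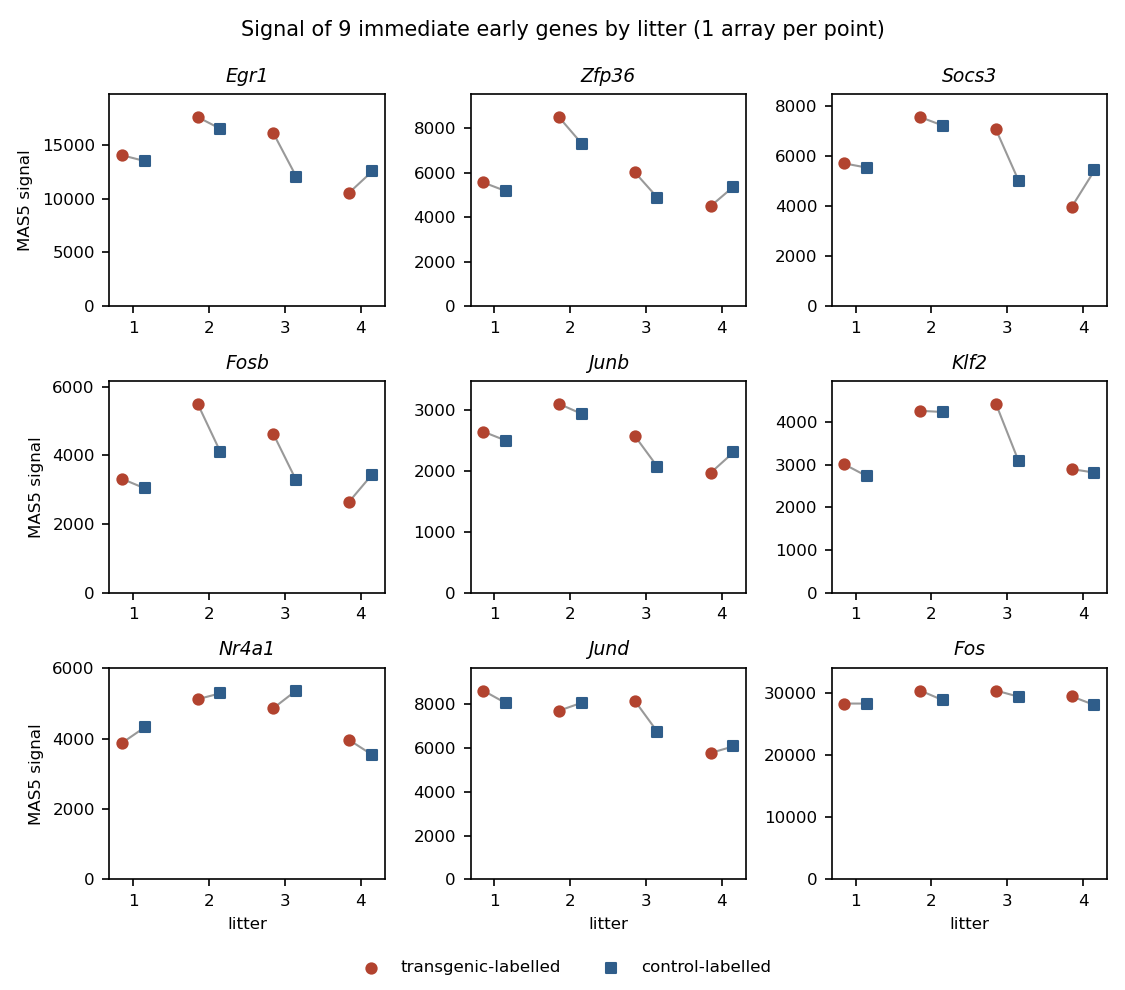
Signal on the linear MAS5 scale (vertical axis, from 0) of 9 immediate early genes in each litter (horizontal axis), with 1 array per point, transgenic-labelled pools as circles left of control-labelled pools as squares, and a line joining the pools of a litter. Egr1, Zfp36 and Socs3 share their order of litters, and Fos stays between 28026 and 30362.

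Across the 8 pools the members varied together more than tested probe sets in general. Pairwise Pearson r of log2 signal was positive for 386 of 435 pairs (88.7%), with a mean of 0.45, where the mean over all pairs of tested probe sets was 0.0034. These correlations are descriptions over 8 pools that share litters in pairs. With each value centred on its group the mean over members was 0.43, and centred on its litter, which leaves only the difference within a litter, it was 0.34. Probe sets of 1 gene count once here, and the 26 other tested probe sets of 16 of these genes had a median r of 0.50 with the brightest one.

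Fos was the gene first compared with the others, over its narrow range. Its median r with the other 29 tested members was 0.42, against 0.05 with all tested probe sets. Of these members 3 (10.3%) had a positive r with an unadjusted exact permutation p under 0.05, against 3.71% of all probe sets, 0 had a negative one (2.42% of all), and 0 passed adjustment over 22517 (0% of all, lowest adjusted p 0.56). Closest was Nr4a2, with r = 0.91 (exact permutation p = 0.0027, adjusted 0.80) and rho = 0.88 (exact p = 0.0072), and r = 0.81 without the 2 pools farthest from the median of Fos. This is its brightest probe set, with which the 3 other tested ones of Nr4a2 had r between 0.39 and 0.50. Dusp1 followed with r = 0.79 (exact p = 0.011, adjusted 0.80), rho = 0.74 (exact p = 0.046) and r = 0.67 without those pools. Klf4 had r = 0.76 (exact p = 0.037, adjusted 0.80), rho = 0.43 (exact p = 0.30) and r = 0.041 without those pools. At the other end were Gadd45b (r = -0.25, rho = -0.10), Atf3 (r = -0.07, rho = 0.05) and Myc (r = 0.02, rho = 0.17), with exact permutation p values of 0.54, 0.86 and 0.96 for r. For Gadd45b this rests on its brightest probe set. Another with a mean signal of 2869 had r = -0.025 with that one, and a dim one (112) had r = 0.67. Without the 2 pools farthest from the median, the transgenic-labelled ones of litters 2 and 3, the median r fell to -0.09, so the median relation rests on those pools, while Nr4a2, Dusp1 and Nr4a1 (r = 0.56) kept an r above 0.5. Over all pools, r with Fos was above 0.5 for 13 of the 29 members (44.8%), against 14.4% of all probe sets. It was so too for 7 of 12 fibroblast, 7 of 12 skeletal muscle and 6 of 13 cartilage markers. Such an r was thus not confined to immediate early genes. Shares were lower for other inducible (12 of 37), upstream (4 of 21) and heat shock genes (1 of 11). They were lower too for macrophage (2 of 7), endothelial (1 of 10), erythroid (0 of 3) and sex-linked genes (0 of 4).

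Egr1, taken in place of Fos after the values had been seen, varied 1.67-fold and had a positive r with all 29 other tested members, with a median of 0.66, against 0.02 over all tested probe sets. Of the 29, 13 (44.8%) had a positive r with an unadjusted exact permutation p under 0.05, against 3.39% of all probe sets, 0 had a negative one (2.95% of all), and 21 (72.4%) had r above 0.5, against 12.5%. Socs3 was closest, with r = 0.99 and rho = 1.00 (exact permutation p = 4.96e-05 for each, the smallest that 8 pools allow, adjusted p = 0.22), and r = 0.98 without the 2 pools farthest from the median of Egr1. Junb had r = 0.95 (exact p = 2.5e-04, adjusted 0.43; rho = 0.98) and Zfp36 r = 0.93 (exact p = 2.0e-04, adjusted 0.41; rho = 0.98). Ier2, Jun, Fosb and Ier3 lay between 0.90 and 0.92. None passed adjustment over all 22517 probe sets (0% of them did), which with 8 pools was nearly out of reach, as for Fos. Without the 2 pools farthest from its median the median r of members with Egr1 was 0.70. Least like Egr1 were Egr3 (r = 0.06), Myc (0.13) and Fosl2 (0.14).

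**Figure D3:**
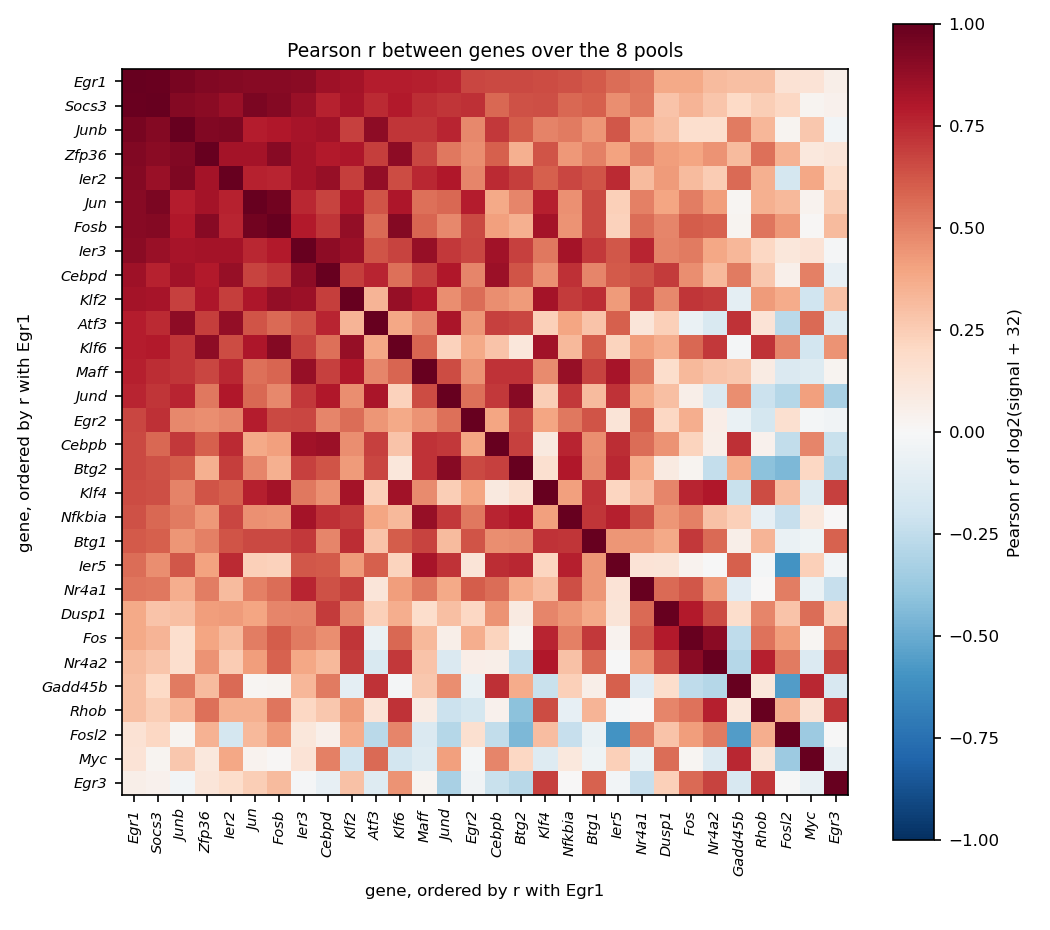
Pearson r over the 8 pools between each 2 of the 30 tested genes, with genes on both axes ordered by their r with Egr1 and red for positive, blue for negative values. A block of positive values runs from Egr1, Socs3, Junb and Zfp36 to the middle of the order, while Myc, Egr3 and Fosl2 stand at its end.

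Genes that are no member were taken at their tested probe set of highest r, not at their brightest as members were. The 5 closest to Fos over the 8 pools were Hnrnpa0 (r = 0.97, rho = 0.90), Cpeb4 (0.96, 0.88), 2310047D07Rik (0.96, 0.98), Tub (0.96, 0.88) and Dffa (0.95, 0.88). Their adjusted exact permutation p values for r lay between 0.56 and 0.79. Closest to Egr1 were Haghl (r = 0.99, rho = 1.00), Myo1c (0.97, 0.90), Jmy (0.96, 0.95), Nmt2 (0.95, 0.90) and Haus2 (0.95, 0.90), with adjusted exact permutation p values for r between 0.22 and 0.56. Taken at their highest r, these genes run as close to Egr1 as the closest members, taken at their brightest probe set.

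By genotype label, which cannot be told apart from sex here, no difference of a member passed the test. None of the 30 passed an adjusted p of 0.05 in limma, nor did any of the 22518 tested probe sets (0%), and the members' lowest adjusted p was 0.9997. An unadjusted p under 0.05 was found for 4 members (13.3%), all higher in transgenic-labelled pools, against 355 (1.58%) of all probe sets in that direction, and for 0 members in the other direction, against 1.71%. In either direction 740 probe sets (3.29%) were under it. These 4 members were Klf4, with a log2 fold change of 0.29 (95% interval 0.05 to 0.53), Nr4a2 with 0.29 (0.02 to 0.55), Rhob with 0.22 (0.01 to 0.42) and Dusp1 with 0.17 (0.01 to 0.33). Their unadjusted p values in limma were 0.020, 0.035, 0.038 and 0.039. The transgenic-labelled pool was the higher in 3, 4, 4 and 3 of 4 litters. With the litter as a block their adjusted p values in limma were 0.74, 0.70, 0.74 and 0.84. The block put 5 members, Klf2 besides these, under an unadjusted p of 0.05 as higher (2.7% of all probe sets) and 0 as lower (2.84% of all).

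Other probe sets did not all run alike. A dimmer one of Klf4 had a log2 fold change of 0.30, while the 3 other tested ones of Nr4a2 lay between -0.09 and 0.01. For Egr3 the other tested one, with a mean signal of 110, had -0.62, against 0.29 for the brightest. Across pools these 2 of Egr3 ran against each other (r = -0.65). The other one of Egr2 had 0.13, against -0.09 for the brightest. For Klf6, with 0.11 for the brightest, another had 0.31 (limma unadjusted p = 0.027) and the rest lay between -0.03 and 0.03. Over 16 genes, 16 of the 26 other tested probe sets had the sign of the brightest.

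The log2 fold change was above 0 for 26 of 30 members (86.7%), against 51.2% of all tested probe sets and 53.7% of the brighter 11259, with a median of 0.06 against 0.00, and it ranged from -0.09 for Egr2 to 0.29 for Egr3. The 95% interval lay within a 2-fold change for all 30 and within 1.5-fold for 29. AP-1 subunits were higher in 7 of 8, by a median of 0.05, and zinc finger factors and nuclear receptors in 6 of 8, by 0.14. The other regulators were higher in 5 of 5, by 0.09, and restraining genes in 8 of 9, by 0.04. Fosb was at 0.17 (95% interval -0.21 to 0.55), Egr1 at 0.08 (-0.21 to 0.37), Fos at 0.05 (-0.06 to 0.15) and Jun at 0.03 (-0.10 to 0.16). Klf2, Nr4a2, Cebpd and Rhob were higher in 4 of 4 litters (13.3% of members, 6.83% of all probe sets), and no member was lower in 4 of 4 (6.6% of all). In no member did the groups fail to overlap (2.27% of all).

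The comparison is also given litter by litter; a difference between litters was not tested. The transgenic-labelled pool was the higher for 16 of 30 members in litter 1, 22 in litter 2, 26 in litter 3 and 16 in litter 4, against 50.5%, 51.1%, 49.1% and 50.4% of all tested probe sets. The counts in litters 1 and 4 are near that share, and the median differences were 0.02, 0.09, 0.25 and 0.04 on the log2 scale. With the litter as a block and litter 3 left out, 16 of 30 members were above 0, with a median of 0.01. Without the transgenic-labelled pool of litter 2 alone, 17 were above 0, with a median of 0.02, and the number with an unadjusted p under 0.05 went to 0. With the level of Xist, which moved with the label in all litters but litter 4, as a covariate, 18 were above 0, with a median of 0.04.

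**Figure D4:**
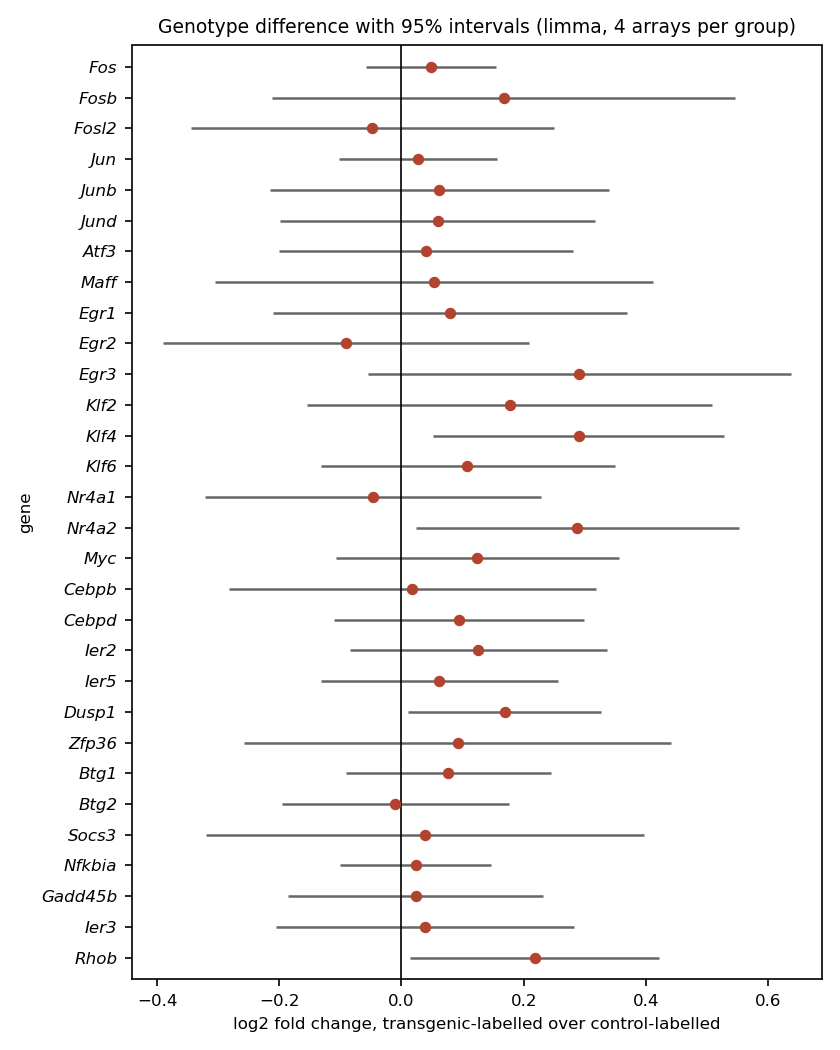
Log2 fold change of transgenic-labelled over control-labelled pools (horizontal axis) for each tested gene (vertical axis), with dots for estimates and bars for 95% intervals from limma on 4 arrays per group. Only the bars of Klf4, Nr4a2, Dusp1 and Rhob clear 0, and no dot passes 0.29.

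The rest of the pathway was taken from lists chosen with earlier results of these data known. Of 31 kinases and factors that act upstream, 21 were tested: Atf2, a CREB relative, had an unadjusted litter p under 0.05 (1 of 21, 4.76%), and by genotype label 12 were higher and 9 lower, with 0 under an unadjusted p of 0.05. Of 47 other inducible genes 37 were tested, and 12 (32.4%) had an unadjusted litter p under 0.05. Among these Cxcl1, a neutrophil chemokine, and Spry1, a feedback inhibitor of receptor tyrosine kinases, passed the adjusted threshold between litters in limma (adjusted p = 0.012 and 0.048). Cxcl1 had signals of 704, 861, 523 and 365 in transgenic-labelled pools, against 425, 658, 400 and 233 in control-labelled pools. It was lowest in litter 4 and highest in litter 2 within each label, and higher in the transgenic-labelled pool in 4 of 4 litters. Its log2 fold change by label was 0.50, with a limma unadjusted p of 0.084 without the litter block, and of 4.2e-04 with it (adjusted p = 0.70). By label 28 of the 37 had a positive log2 fold change and 9 a negative one, with a median of 0.07 and 0 under an unadjusted p of 0.05. With Egr1, r was positive for 27 of the 37 and negative for 10, and above 0.5 for 17. At the ends, named after their values were seen, stood the circadian repressor Bhlhe40 (r = 0.90) and Klf10, a zinc finger factor induced by TGF-beta (r = -0.87).

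Heat shock genes, which dissociation can also induce, ran in opposite directions among themselves. Of 11 tested, 6 had an unadjusted litter p under 0.05, and r with Egr1 was positive for 4 and negative for 7. The positive values were 0.57 for the co-chaperone Dnajb1, 0.49 for Hspa1a and 0.46 for Hspa1b, both inducible chaperones of the Hsp70 family, and 0.13 for Hspb1. The negative values were -0.80 for the mitochondrial chaperone Hspd1, -0.74 for Hsp90aa1 and for Hspa5, and -0.70 for Hsph1. Those of Hspe1, Dnaja1 and Hspa8 lay between -0.484 and -0.475. Their mean over the list, between -0.04 and 0.04 in every pool, averages over these and shows no order of pools. Dnajb1 and Hspa1a were lowest in the transgenic-labelled pool of litter 4, with signals of 4424 and 6807, and highest in the control-labelled pool of litter 2, with 6396 and 10038. Hspa1b was lowest in the transgenic-labelled pool of litter 3 (13236.5), and Hsph1 was highest in that of litter 4 (2347).

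**Figure D5:**
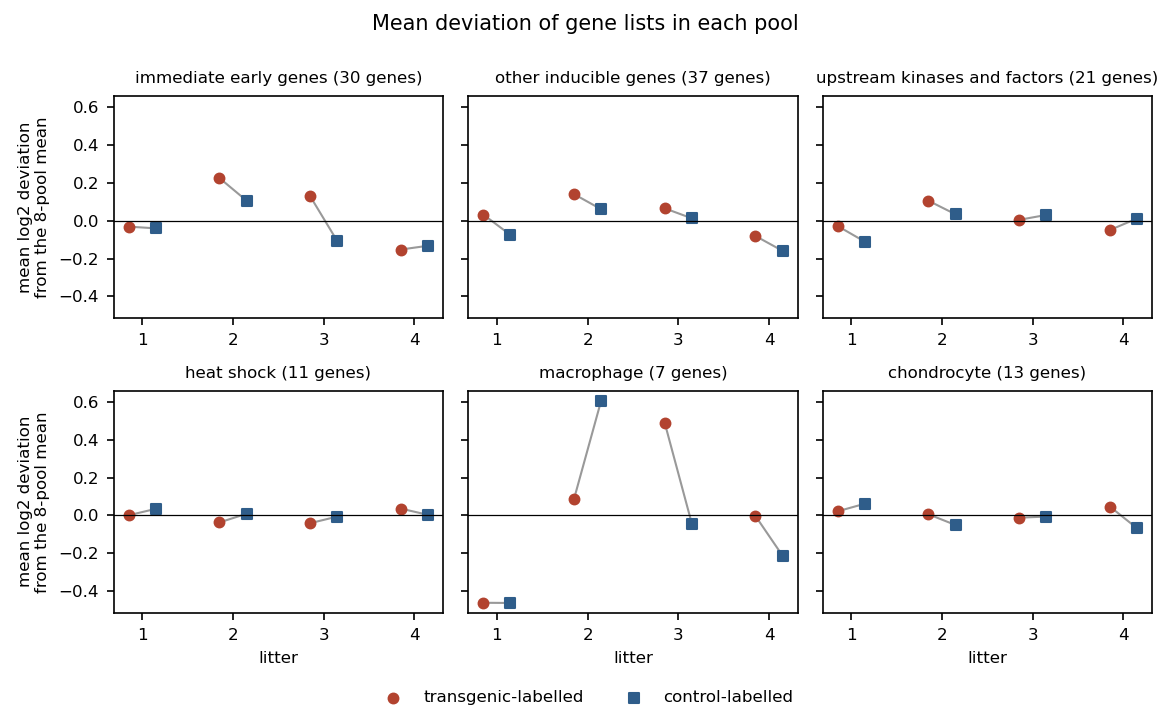
Mean log2 deviation from the 8-pool mean (vertical axis) of 6 gene lists in each litter (horizontal axis), with transgenic-labelled pools as circles left of control-labelled pools as squares. Immediate early genes run from 0.23 in the transgenic-labelled pool of litter 2 to -0.15 in that of litter 4, and the macrophage list from 0.61 in the control-labelled pool of litter 2 to -0.46 in litter 1.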

How the data were processed

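Total RNA of 8 pools was labelled with biotin and hybridised to 1 one-colour Affymetrix array each. The deposited values are linear probe set intensities. The submitters' processing notes name MAS5, whose version is not given in the sources. In every column the mean without the top and bottom 2% was 500. Control probe sets (64) were left out, and the other 45037 were turned to log2(signal + 32), which makes differences of dim genes smaller. The 22518 with a mean over all arrays above the median were tested with lmFit and eBayes (intensity trend) in limma 3.58.1 (R 4.3.3), transgenic minus control, with Benjamini-Hochberg adjustment. No normalization was added. Symbols came from the platform annotation of GEO, and a lookup by gene identifier in RefSeq GRCm38.p6 changed 0; 34945 probe sets had 1 symbol, 932 several and 9160 none.

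Correlations were tested by exact two-sided permutation over all 40320 pairings of the 8 pools, which take no account of litters. The numbers in the labels are those of litters, so same-numbered pools are paired. Their deviations from the group means correlated at 0.28, 0.17, 0.04 and 0.14 in litters 1 to 4. Pools of unlike number correlated between -0.15 and 0.09. The transgenic-labelled pool of litter 3 was no closer to its own pair than to the control-labelled pool of litter 2 (0.05). The chosen fit had no block, since the labels name no test; the blocked fit was run beside it. Members, lists and named genes were chosen with earlier results of these data known. Per-pool values are given for Fos, Jun and Egr1, for members with an unadjusted p under 0.05, and for the 3 members at each end of r with Fos and of spread. Fits and correlations were tested on simulated data. Lists of endothelial, erythroid, skeletal muscle and fibroblast markers had 10, 3, 12 and 12 tested genes and medians of -0.22, -0.28, 0.03 and 0.04 on the log2 scale by label, with 1 lower (Cdh5), 0, 1 higher (Myf5) and 0 at an unadjusted p under 0.05; between litters 2, 3, 6 and 6 were under it. Precision is set by 4 arrays per group. Python 3.11.15, scipy 1.17.1 and matplotlib 3.10.9 were used.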

Additional observations from a re-analysis of the deposited data

Results flagged for a closer look

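In a search of 60 groups of 4 pools for an array far from the others, 2 stood out, where chance flags about 1 in 20 groups. In transgenic-labelled pools Egr3, a zinc finger factor, had 162 in litter 1, against 224 to 239 in the others, a gap of 0.838 of the range. Dusp1 had 18546 in the transgenic-labelled pool of litter 2, against 15770 to 16174 in the others, a gap of 0.844 of the range.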

How the results depend on the processing

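With the litter as a replicate block, 5 members had an unadjusted p under 0.05, all higher in transgenic-labelled pools, and the block changed no other call of the genotype comparison: 0 members and 0 probe sets passed the adjusted threshold. Under all 21 alternatives 0 members passed it. The count of all probe sets passing was 1 with Xist as a covariate (Zfr, log2 fold change 1.16, limma adjusted p = 0.020), and 0 to 4 when replicates were left out (Xist without the transgenic-labelled pool of litter 4; Agtr2, Xist and a pair for Dcaf12l1 with the block and without litter 4). Members with an unadjusted p under 0.05 and higher numbered 0 without the intensity trend and 0 to 10 with replicates left out (0, 1 and 2 without the transgenic-labelled pool of litter 2 or 3 or the control-labelled pool of litter 1; 10 with the block and without litter 4), and the median log2 fold change of members 0.007 to 0.159. The median r with Fos was 0.66 with Egr1 in its place and 0.25 to 0.57 with replicates left out. That with Egr1 was 0.72 centred on the group, 0.73 after quantile normalization and 0.62 to 0.77 with replicates left out. Centred on the litter, as a replicate block, the median r was 0.37 with Fos and 0.63 with Egr1. Between litters, 2 members passed the adjusted threshold after quantile normalization (Nr4a1 and Zfp36, among 118 of all probe sets) and 0 to 6 with replicates left out (among 10 to 286), and 10 to 22 had an unadjusted p under 0.05 (9.33% to 17.5% of all). The cause was not tested. The litter test, the comparison with Egr1 and their alternatives were chosen after seeing the data. Dim probe sets limit what can be said of Fosl1, Nr4a3 and Dusp2.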
